A study of Mus musculus with 8 samples.

Results

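Potassium channel genes were examined in skeletal muscle of 9-week-old male mice with and without LSD1 in their myofibers. All genes with a symbol starting with Kcn and a summed count of at least 50 over the 6 libraries analysed were taken, which gave 48 of the 27041 genes in the count table. Another 33 Kcn genes lay below that limit. *Kcnmb1* (50 reads) and *Kcnj15* (51 reads) were the members just inside it, and *Kcnk13* (47 reads) and *Kcnip2* (34 reads) were the genes just outside it. By symbol, 18 members belong to the voltage-gated families Kcna to Kcnh, which here include the beta subunit genes *Kcnab1* and *Kcnab2*, 6 to the inward rectifiers (Kcnj), 5 to the tandem-pore leak channels (Kcnk), 6 to the calcium-activated channels (Kcnm and Kcnn) and 3 to the Kcne subunits. The other 10 are 3 Kcnq genes, 2 of the silent families Kcns and Kcnv, 3 sodium- or pH-activated channels (Kcnt and Kcnu), *Kcnip3*, whose product binds channels and DNA, and *Kcnq1ot1*, a noncoding RNA antisense to *Kcnq1*.

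LSD1skm-/- mice carry floxed *Kdm1a* alleles (LSD1 L2/L2), whose first exon is removed by a Cre recombinase under the HSA promoter, which is active in myofibers. Ctrl mice carry the same floxed alleles without Cre, and both groups are C57BL/6J males of the same age. The study's text names gastrocnemius as the muscle sequenced, whereas the labels give only skeletal muscle. Counts of 4 Ctrl libraries and LSD1skm-/- replicates 1 and 2 were analysed, and LSD1skm-/- replicates 3 and 4 were not analysed here.

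Potassium channels let potassium ions leave or enter the cell along their gradient, and so set the resting potential of a muscle fiber and end its action potential. Voltage-gated channels open on depolarization, inward rectifiers hold the membrane near rest, tandem-pore channels carry leak currents, and calcium-activated channels open when cytosolic calcium rises. Some family members, such as those of the Kcnf, Kcng, Kcns and Kcnv families, form no channel on their own but modify the channels they join, and Kcne proteins are small accessory subunits.

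Libraries held between 30654828 and 41278769 counts, and no library repeated another within sampling noise. *Kdm1a*, the deleted gene, had 22.0 to 28.1 CPM (counts scaled to a common library size by the TMM method) in Ctrl replicates 1 to 3 and 2.96 and 3.48 CPM in the LSD1skm-/- libraries, but 3.66 CPM in the library labelled Ctrl replicate 4, which goes against its label. The log2 fold change of *Kdm1a* was -2.56 by the labels (adjusted p = 0.557, edgeR's quasi-likelihood test) and -2.91 without that library (adjusted p = 0.000579, same test). Results are therefore given with all 6 libraries, grouped by their labels, and without the library labelled Ctrl replicate 4. Markers of myofibers were high in all libraries. Their sum over 6 genes was 148600 to 165300 CPM in Ctrl replicates 1 to 3. In the library labelled Ctrl replicate 4 it was 140800 CPM, and in the LSD1skm-/- libraries 135600 and 143700 CPM. In bulk tissue, fewer cells of a type and less RNA per cell cannot be told apart.

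With all 6 libraries, 0 of the 24 potassium channel genes tested passed an adjusted p of 0.05 (edgeR), where 0% of all genes did. Without the library labelled Ctrl replicate 4, 6 of 24 (25%) passed, against 5.39% of all genes. *Kcnk1*, *Kcne1l*, *Kcnn3* and *Kcnn2* were higher, and *Kcnf1* and *Kcnj2* were lower in LSD1skm-/- muscle. Of these, *Kcnk1*, *Kcne1l* and *Kcnn3* passed the filter on counts only through the libraries in which they were high. Among the 19 members above a mean count of 50 in both groups without that library, 3 passed (15.8%), against 4.69% of such genes. The promoters of those for which RefSeq gives a sequence are shown first, because these are the members called different in that comparison. Each runs 5′ to 3′ on the strand of its gene, from 250 bases before to 50 bases after the annotated start (build GRCm38.p6), and capitals mark the E-box CAGCTG, a sequence that myogenic factors of the MyoD family bind. The windows lie at chr8:125994852-125995151 (plus strand, *Kcnk1*), chrX:142306149-142306448 (minus strand, *Kcne1l*), chr3:89519914-89520213 (plus strand, *Kcnn3*), chr12:17176839-17177138 (minus strand, *Kcnf1*) and chr11:111065914-111066213 (plus strand, *Kcnj2*).
Kcnk1: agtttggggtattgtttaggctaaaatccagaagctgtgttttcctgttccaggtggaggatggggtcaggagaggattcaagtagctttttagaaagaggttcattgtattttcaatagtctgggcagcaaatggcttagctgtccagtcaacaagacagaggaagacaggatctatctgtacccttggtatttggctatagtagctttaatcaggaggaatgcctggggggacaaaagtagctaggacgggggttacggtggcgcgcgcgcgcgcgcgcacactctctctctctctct
Kcne1l: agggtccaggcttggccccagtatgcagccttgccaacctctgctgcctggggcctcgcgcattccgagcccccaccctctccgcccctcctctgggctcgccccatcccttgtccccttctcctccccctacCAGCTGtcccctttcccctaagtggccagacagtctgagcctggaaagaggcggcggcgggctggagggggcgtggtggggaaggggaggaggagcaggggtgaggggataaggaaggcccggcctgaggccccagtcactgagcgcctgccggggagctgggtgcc
Kcnn3: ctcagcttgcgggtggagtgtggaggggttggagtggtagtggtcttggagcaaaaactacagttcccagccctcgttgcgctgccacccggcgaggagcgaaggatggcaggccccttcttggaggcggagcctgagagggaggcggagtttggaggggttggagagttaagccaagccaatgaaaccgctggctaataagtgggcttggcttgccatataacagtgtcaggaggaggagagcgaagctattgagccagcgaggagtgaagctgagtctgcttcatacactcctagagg
Kcnf1: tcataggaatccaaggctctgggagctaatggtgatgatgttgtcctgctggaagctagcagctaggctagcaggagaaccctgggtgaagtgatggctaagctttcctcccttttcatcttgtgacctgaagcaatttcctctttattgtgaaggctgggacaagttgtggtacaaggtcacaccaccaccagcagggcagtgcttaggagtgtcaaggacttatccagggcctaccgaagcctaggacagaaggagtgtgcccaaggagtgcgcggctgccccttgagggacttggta
Kcnj2: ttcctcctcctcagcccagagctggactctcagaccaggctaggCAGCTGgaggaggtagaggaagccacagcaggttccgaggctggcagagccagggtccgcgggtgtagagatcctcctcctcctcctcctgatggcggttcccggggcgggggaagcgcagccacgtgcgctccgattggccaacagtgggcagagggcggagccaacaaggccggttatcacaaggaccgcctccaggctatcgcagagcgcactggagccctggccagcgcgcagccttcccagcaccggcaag

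These windows differed in base composition. GC content was 49% in *Kcnk1*, 53% in *Kcnf1*, 57.7% in *Kcnn3*, 66.7% in *Kcnj2* and 69.7% in *Kcne1l*. *Kcnf1* held 3 CG dinucleotides, against 10 in *Kcnk1*, 11 in *Kcnn3*, 12 in *Kcne1l* and 18 in *Kcnj2*. The letters CAGCTG occurred in *Kcne1l*, at bases 134 to 139 of its window, and in *Kcnj2*, at bases 45 to 50.

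Outside chromosome 18, RefSeq promoters were matched for 34 of the 48 members, with 50 windows in all. Their median GC content was 57.7%, against 52.7% over all 32851 promoter windows outside that chromosome. CAGCTG, which reads the same on both strands, was found in 16 of the 50 windows (32%), against 16.3% of all windows. The genes with it were *Kcna2*, *Kcna5*, *Kcnc2*, *Kcne1l*, *Kcne4*, *Kcng4*, *Kcnip3*, *Kcnj2*, *Kcnj3*, *Kcnk2* and *Kcnn1*, so it was present both in genes called different between the groups and in genes that were not. The left and right parts of the site of REST, a repressor of neuronal genes (TTCAGCACC and GGACAGCGC), were found on neither strand of a member window, against 0.371% and 0.405% of all windows. Full sites of NRF1, the glucocorticoid receptor and MEF2 were also found in 0 of the 50 windows, against 0.971%, 0.00913% and 3.69% of all windows.

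Levels were compared between genes as CPM per kilobase of exon, averaged over the 6 libraries. *Kcnj11*, the pore of the ATP-sensitive potassium channel, was the highest member, with 38 CPM per kilobase and 20.3% of the sum over all members. *Kcnj12*, an inward rectifier, came next at 25.7, followed by *Kcna7*, a voltage-gated channel of muscle and heart, at 24.2, *Kcng4*, a silent subunit, at 21.2, and *Kcnc4*, a fast voltage-gated channel, at 15.04. The lowest member, *Kcnh7*, had 0.0220 CPM per kilobase. High members of the voltage-gated and inward rectifier classes were present in every library, whereas the highest member of the Kcnk class, *Kcnk1*, owed its mean of 5.40 CPM per kilobase to the LSD1skm-/- libraries and the library labelled Ctrl replicate 4.

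**Figure D1:**
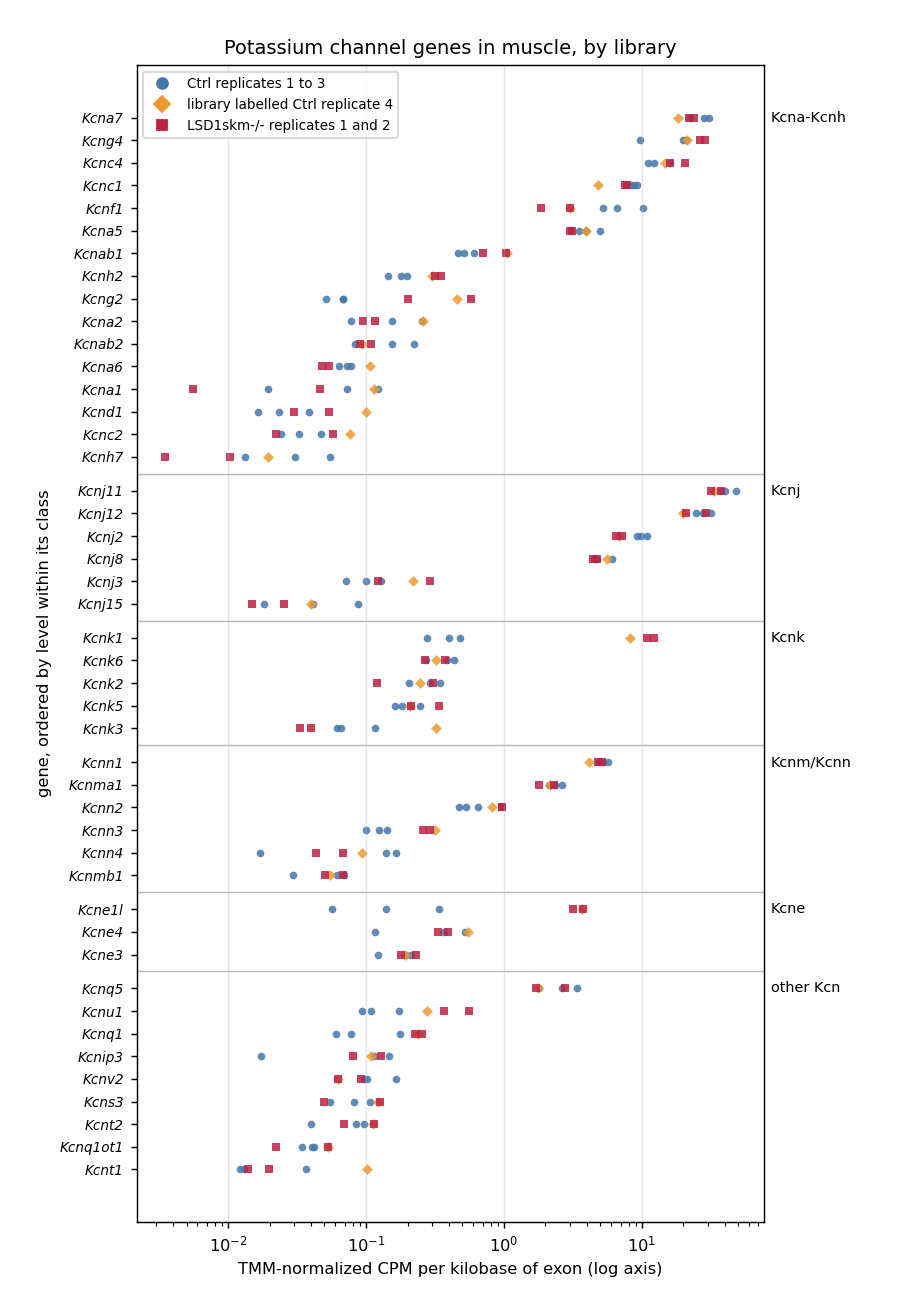
Level of 45 of the 48 potassium channel genes in each library, as TMM-normalized CPM per kilobase of exon on a log axis, ordered by mean level within each class. Points are libraries, with circles for Ctrl replicates 1 to 3, diamonds for the library labelled Ctrl replicate 4 and squares for LSD1skm-/- replicates 1 and 2. *Kcnk1* and *Kcne1l* show a gap between Ctrl replicates 1 to 3 and the other libraries, and most other members overlap or lie close together.

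Summed over classes, the leak channels and the Kcne subunits separated most. The 5 Kcnk genes together had 1.32, 1.11 and 1.49 CPM per kilobase in Ctrl replicates 1 to 3, 9.27 in the library labelled Ctrl replicate 4, and 12.8 and 12.0 in the LSD1skm-/- libraries. For the 3 Kcne genes the sums were 0.622, 0.377 and 1.07, then 4.43 in the library labelled Ctrl replicate 4, and 3.81 and 4.23 in LSD1skm-/- muscle. *Kcnk1* and *Kcne1l* made up most of these differences. The 18 voltage-gated genes summed to between 71.4 and 92.4 CPM per kilobase in the Ctrl libraries and to 83.6 and 89.7 in the LSD1skm-/- libraries, within the Ctrl range. The Kcnm and Kcnn genes, with 7.57 to 9.12 in Ctrl and 7.95 and 8.81 in LSD1skm-/- muscle, also overlapped. The Kcnj sum ranged from 66.1 to 91.4 in the Ctrl libraries and was 64.8 and 77.6 in the LSD1skm-/- libraries. Class sums were not tested.

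**Figure D2:**
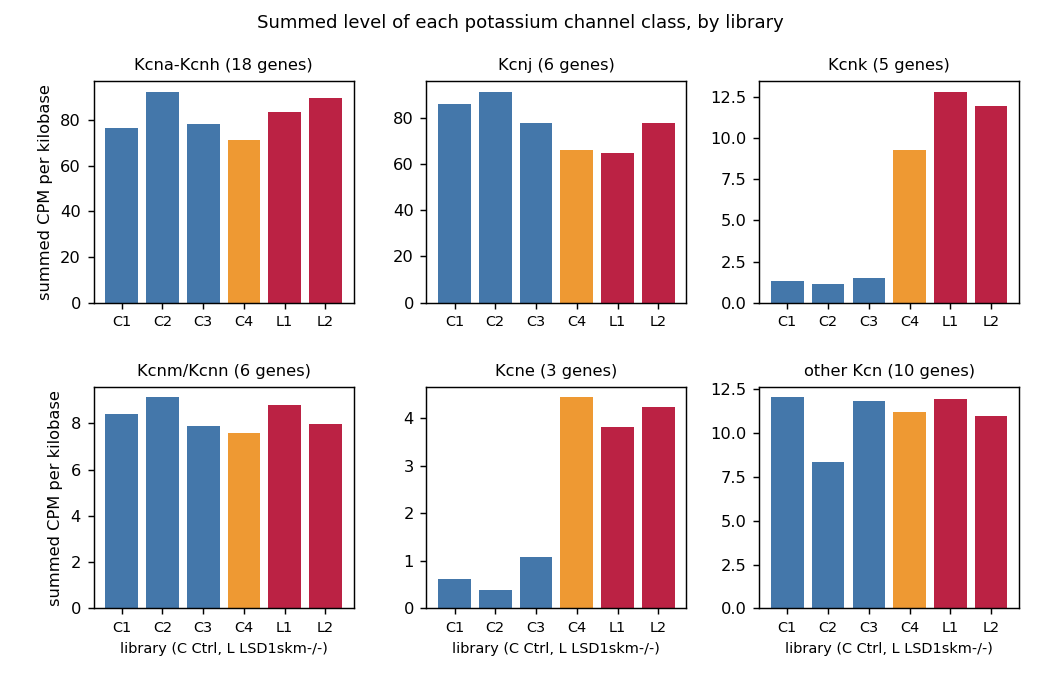
Summed level of each class in each library, in TMM-normalized CPM per kilobase of exon, with bars from 0. C1 to C4 are Ctrl replicates 1 to 4 by their labels (C4 in orange) and L1 and L2 are LSD1skm-/- replicates 1 and 2. The Kcnk sum is 1.11 to 1.49 in C1 to C3 and 9.27 to 12.8 in the other libraries, and the Kcna to Kcnh sum lies between 71.4 and 92.4 in all 6.

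Of the 48 members, 24 had a mean count above 50 and were tested in the main comparison, and the other 24 did not pass that filter. With all 6 libraries, 0 of the 24 passed an adjusted p of 0.05 (quasi-likelihood test of edgeR, Benjamini-Hochberg adjustment over 11364 genes), where 0% of all genes tested passed. DESeq2 gave no p for *Kcnk1* and *Kcne1l* with all 6 libraries, and of the other 22 members it called 0 at an adjusted p under 0.05, against 0.405% of all genes with a value. At an unadjusted p under 0.05, edgeR called 4 of 24 members (16.7%), against 8.9% of all genes, and DESeq2 called 6 of its 22 (27.3%), against 9.73%. *Kcnc4* and *Kcnn2* were the 2 higher ones (8.33% of members, against 5.02% of all genes), and *Kcna5* and *Kcnf1* the 2 lower ones (8.33%, against 3.88%).

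Without the library labelled Ctrl replicate 4, 6 of 24 members (25%) passed an adjusted p of 0.05, against 5.39% of all genes tested. The 4 higher members were 16.7% of those tested, against 4.36% of all genes, and the 2 lower members 8.33%, against 1.02%. An unadjusted p under 0.05 was reached by 12 members (50%), against 20.2% of all genes. Of these 7 were higher (29.2%, against 12.5% of all genes) and 5 were lower (20.8%, against 7.72%). *Kcnk1*, *Kcne1l* and *Kcnn3* had a mean count of 50 or less in Ctrl replicates 1 to 3 and passed the filter only through the libraries in which they were high. Among the 19 members with a mean count above 50 both in Ctrl replicates 1 to 3 and in the LSD1skm-/- libraries, 3 had an adjusted p under 0.05 (*Kcnf1*, *Kcnj2* and *Kcnn2*, 15.8%), against 4.69% of the 10878 genes above 50 in both. DESeq2 called 7 of 24 members (29.2%) at an adjusted p under 0.05 in these 5 libraries, the same 6 and *Kcnab1*, against 9.29% of all genes. In 10 further settings that also left out this library, with other scalings, filters or tools or with another library left out as well, *Kcnk1* and *Kcne1l* passed an adjusted p of 0.05 in all 10, *Kcnf1* in 7, *Kcnn2* and *Kcnn3* in 6 and *Kcnj2* in 4, and all 6 genes kept their direction. Without LSD1skm-/- replicate 1, LSD1skm-/- replicate 2 or Ctrl replicate 1 as well, *Kcnk1* and *Kcne1l* were the 2 members that passed, 3 passed without Ctrl replicate 2 and 5 without Ctrl replicate 3. The fitted log2 fold changes of the 24 members had a median of -0.11 with all 6 libraries and -0.17 without the library labelled Ctrl replicate 4, with 8 above 0 and 16 below 0 in both. Over all 11364 genes the medians were -0.0077 and -0.0058, with 5518 and 5569 genes above 0.

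**Figure D3:**
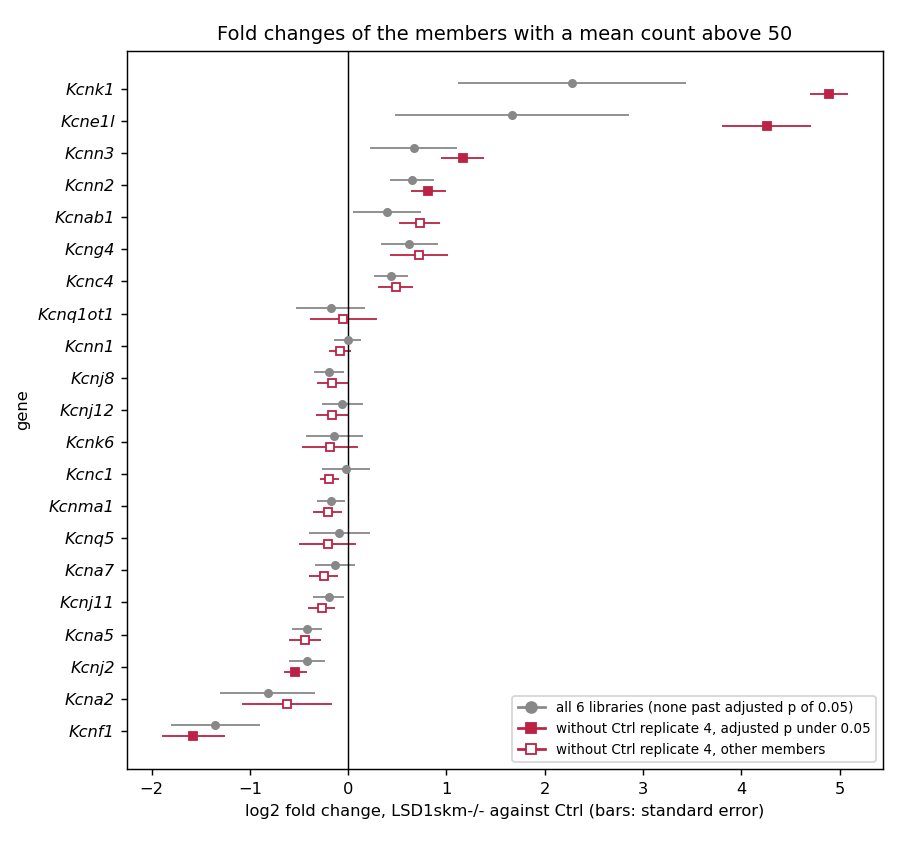
Log2 fold change of LSD1skm-/- against Ctrl muscle for 21 of the 24 members with a mean count above 50, from edgeR, with bars for the standard error. Grey circles are from all 6 libraries and squares from the fit without the library labelled Ctrl replicate 4, filled where the adjusted p was under 0.05. *Kcnk1* (4.89) and *Kcne1l* (4.26) lie far to the right in the second fit, *Kcnf1* (-1.58) lies furthest to the left, and 14 of the 21 lie left of 0.

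With the wider filter of a summed count of at least 50, all 48 members could be tested. Without the library labelled Ctrl replicate 4, 8 of them (16.7%) had an adjusted p under 0.05, against 4.5% of 14632 genes, and the additional ones were *Kcng2* and *Kcnu1*. In Ctrl replicates 1 to 3, *Kcng2* had 7, 5 and 7 reads, *Kcnu1* 14, 21 and 12 and *Kcne1l* 3, 7 and 18. These genes reached the limit of 50 only with the reads of the other libraries, in which they were higher. With all 6 libraries 7 of 48 (14.6%) had an unadjusted p under 0.05, against 8.54% of all genes. CPM did not overlap between the 4 Ctrl and the 2 LSD1skm-/- libraries for 12 members (25%), against 17.4% of the 14632 genes, and between Ctrl replicates 1 to 3 and the LSD1skm-/- libraries for 21 members (43.8%), against 36.1%.

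Among the tandem-pore channels, *Kcnk1* showed the largest fold change of all members in the fit without the library labelled Ctrl replicate 4. It encodes a weakly inward-rectifying leak channel and lies at chr8:125995170-126030685 on the plus strand (GRCm38), where 8.01% of its exon bases overlap *Gm45875* on the other strand. *Kcnk1* had 1.07, 0.616 and 0.899 CPM in Ctrl replicates 1 to 3 (37, 20 and 31 reads), 18.3 CPM in the library labelled Ctrl replicate 4 (799 reads), and 27.2 and 24.4 CPM in LSD1skm-/- replicates 1 and 2 (864 and 918 reads). The LSD1skm-/- libraries lay above all Ctrl libraries, and the library labelled Ctrl replicate 4 was closer to them than to the other Ctrl libraries. Its log2 fold change was 2.28 by the labels (standard error, SE, 1.16, adjusted p = 0.569 in edgeR). Without that library it was 4.89 (SE 0.195, adjusted p = 0.000125 in edgeR), and the mean LSD1skm-/- level was 30.0 times that of Ctrl replicates 1 to 3.

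Of the other tandem-pore members, *Kcnk2*, *Kcnk5* and *Kcnk6* overlapped between the groups, and *Kcnk3*, with 0.133 to 1.28 CPM, was lower in both LSD1skm-/- libraries than in every Ctrl library. *Kcnk6*, the gene of a related leak channel, had 1.13, 1.60 and 1.80 CPM in Ctrl replicates 1 to 3, 1.33 CPM in the library labelled Ctrl replicate 4, and 1.10 and 1.54 CPM in LSD1skm-/- muscle. The groups overlapped, and its log2 fold change was -0.14 by the labels and -0.18 without that library (adjusted p = 0.883 and 0.771 in edgeR). *Kcnk2* and *Kcnk5* had between 0.550 and 1.71 CPM in Ctrl and between 0.599 and 1.51 CPM in LSD1skm-/- libraries, with overlapping groups in both genes. *Kcnk1* thus had a level of 0.276 to 0.479 CPM per kilobase in Ctrl replicates 1 to 3, near those of *Kcnk6* and *Kcnk2*, and 10.9 and 12.2 CPM per kilobase in the LSD1skm-/- libraries, above *Kcnj2* in the same libraries.

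*Kcne1l*, also known as *Kcne5*, encodes an accessory subunit that damps voltage-gated channels such as that of *Kcnq1*. It is a gene of 1 exon at chrX:142304752-142306294 on the minus strand. *Kcne1l* had 0.0868, 0.216 and 0.522 CPM in Ctrl replicates 1 to 3 (3, 7 and 18 reads), 5.69 CPM in the library labelled Ctrl replicate 4 (249 reads), and 4.92 and 5.74 CPM in LSD1skm-/- replicates 1 and 2 (156 and 216 reads). The library labelled Ctrl replicate 4 fell between the LSD1skm-/- libraries, and the remaining Ctrl libraries held 18 reads or fewer. By the labels the log2 fold change was 1.67 (SE 1.19, adjusted p = 0.658 in edgeR), and without that library 4.26 (SE 0.455, adjusted p = 0.00372 in edgeR). The mean LSD1skm-/- level was 19.4 times that of Ctrl replicates 1 to 3.

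The other Kcne genes overlapped between the groups. *Kcne3*, whose product partners with the channel of *Kcnc4* in skeletal muscle, had 0.347, 0.216 and 0.377 CPM in Ctrl replicates 1 to 3, 0.343 CPM in the library labelled Ctrl replicate 4, and 0.410 and 0.319 CPM in LSD1skm-/- muscle. *Kcne4*, another inhibitory subunit, had 0.984, 0.308 and 1.39 CPM in Ctrl replicates 1 to 3, 1.46 CPM in the library labelled Ctrl replicate 4, and 1.04 and 0.877 CPM in LSD1skm-/- muscle. Both had too few reads for the main comparison. In the test with the wider filter and all 6 libraries their log2 fold changes were 0.18 and -0.12 (adjusted p = 0.904 and 0.957 in edgeR).

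Of the calcium-activated channels, the small-conductance genes *Kcnn3* and *Kcnn2* were higher in LSD1skm-/- muscle. *Kcnn3*, which is known to be induced in muscle by denervation, lies at chr3:89520164-89675132 on the plus strand. *Kcnn3* had 1.30, 1.05 and 1.48 CPM in Ctrl replicates 1 to 3, 3.31 CPM in the library labelled Ctrl replicate 4, and 3.02 and 2.71 CPM in LSD1skm-/- muscle. The library labelled Ctrl replicate 4 was the highest of all 6, so the groups overlapped by their labels and separated without it. The log2 fold change was 0.67 (SE 0.44, adjusted p = 0.644 in edgeR) by the labels and 1.17 without that library (SE 0.22, adjusted p = 0.0273 in edgeR), a ratio of means of 2.25.

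*Kcnn2* had 3.50, 3.97 and 4.84 CPM in Ctrl replicates 1 to 3, 6.08 CPM in the library labelled Ctrl replicate 4, and 7.21 and 7.23 CPM in LSD1skm-/- muscle. Both LSD1skm-/- libraries were above all Ctrl libraries. Its log2 fold change was 0.65 by the labels (SE 0.22, unadjusted p = 0.0216, adjusted p = 0.557 in edgeR) and 0.82 without the library labelled Ctrl replicate 4 (SE 0.18, adjusted p = 0.0447 in edgeR). Of its exon bases 8.13% overlap genes on the other strand.

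A list of 9 genes known from denervated or immature fibers summed to 76.5 to 85.2 CPM in Ctrl replicates 1 to 3, 99.8 CPM in the library labelled Ctrl replicate 4 and 94.3 and 104 CPM in the LSD1skm-/- libraries, with 9 of 9 genes detected in every library and the bulk of the sum from *Gadd45a*, a stress-response gene, and *Chrna1*, an acetylcholine receptor subunit. It thus moved with *Kcnn3*, and its part in that result was not tested. *Chrng*, the fetal receptor subunit, was at 0.0630 to 0.174 CPM in all 6 libraries and showed no gap between the groups.

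The large-conductance and remaining small-conductance genes were more even. *Kcnma1*, the pore of the large-conductance channel, had 39.8, 44.9 and 36.3 CPM in Ctrl replicates 1 to 3, 36.3 CPM in the library labelled Ctrl replicate 4, and 39.4 and 30.4 CPM in LSD1skm-/- muscle (log2 fold change -0.17 by the labels, SE 0.14, adjusted p = 0.701 in edgeR). *Kcnmb1*, its smooth muscle beta subunit, had 0.260, 0.123 and 0.290 CPM, then 0.229 CPM, and 0.284 and 0.213 CPM, in the same order. *Kcnn1* had 24.1, 26.0 and 22.3 CPM in Ctrl replicates 1 to 3, 19.0 CPM in the library labelled Ctrl replicate 4, and 23.5 and 22.1 CPM in LSD1skm-/- muscle. In all of these genes the groups overlapped. Per length, *Kcnn1* (4.98 CPM per kilobase) stood above *Kcnn2* (0.733) and *Kcnn3* (0.205), so the 2 Kcnn genes that were higher were minor members of their family in this muscle.

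**Figure D4:**
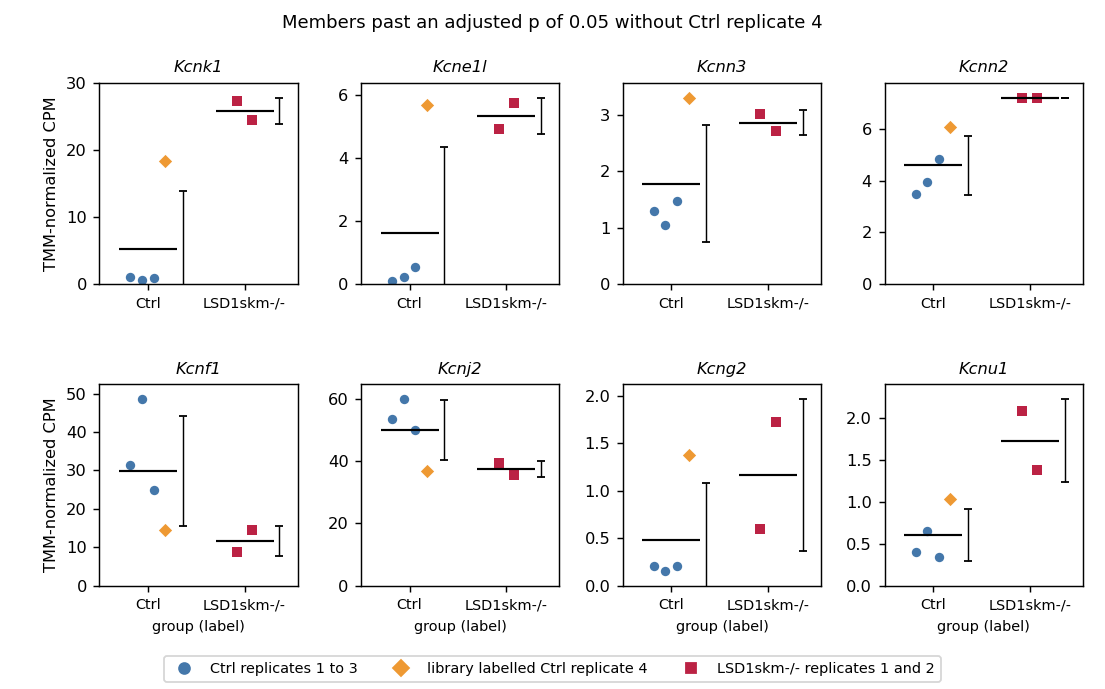
TMM-normalized CPM in each library of the 8 members with an adjusted p under 0.05 in edgeR without the library labelled Ctrl replicate 4, with either filter. Horizontal lines are the means by label (4 Ctrl and 2 LSD1skm-/- libraries) and bars 1 standard deviation, drawn only above 0. The orange diamond, the library labelled Ctrl replicate 4, lies with the LSD1skm-/- libraries for *Kcne1l* (5.69 CPM) and *Kcnj2* (36.9 CPM) and between the groups for *Kcnn2* (6.08 CPM) and *Kcnu1* (1.03 CPM).

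Voltage-gated and silent subunit genes went in both directions. *Kcnf1*, a silent subunit gene of 1 exon at chr12:17172100-17176888 on the minus strand, had 31.4, 48.5 and 24.8 CPM in Ctrl replicates 1 to 3, 14.5 CPM in the library labelled Ctrl replicate 4, and 8.82 and 14.5 CPM in LSD1skm-/- muscle. The LSD1skm-/- libraries were below all Ctrl libraries, but the higher of them (14.46 CPM) was only just below the library labelled Ctrl replicate 4 (14.52 CPM). Its log2 fold change was -1.35 by the labels (SE 0.46, unadjusted p = 0.0192, adjusted p = 0.557 in edgeR) and -1.58 without that library (SE 0.32, adjusted p = 0.0359 in edgeR), and its mean LSD1skm-/- level was 0.334 of that in Ctrl replicates 1 to 3.

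*Kcng4*, the most abundant silent subunit per length, had 75.6, 80.0 and 36.6 CPM in Ctrl replicates 1 to 3, 81.0 CPM in the library labelled Ctrl replicate 4, and 100.7 and 110 CPM in LSD1skm-/- muscle. It was above all Ctrl libraries in both LSD1skm-/- libraries, and Ctrl replicate 3 stood low. The log2 fold change was 0.62 (SE 0.29, adjusted p = 0.559 in edgeR) by the labels and 0.72 (SE 0.29, unadjusted p = 0.0425, adjusted p = 0.229 in edgeR) without the library labelled Ctrl replicate 4. The silent subunit genes *Kcnf1* and *Kcng4* therefore had fold changes of opposite sign.

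Channels of the Kcnc family, which repolarize cells quickly, also differed among themselves. *Kcnc4* had 40.5, 44.7 and 58.6 CPM in Ctrl replicates 1 to 3, 53.5 CPM in the library labelled Ctrl replicate 4, and 58.9 and 74.8 CPM in LSD1skm-/- muscle. The lower LSD1skm-/- library was just above the highest Ctrl library, and the log2 fold change was 0.44 by the labels (SE 0.17, unadjusted p = 0.0355, adjusted p = 0.557 in edgeR) and 0.48 without the library labelled Ctrl replicate 4 (adjusted p = 0.191 in edgeR). *Kcnc1* had 79.5, 86.8 and 83.3 CPM in Ctrl replicates 1 to 3, 45.3 CPM in the library labelled Ctrl replicate 4, and 71.5 and 74.0 CPM in LSD1skm-/- muscle. The library labelled Ctrl replicate 4 was the lowest of all 6 for *Kcnc1*, below the LSD1skm-/- libraries, and the log2 fold change was -0.02 by the labels (adjusted p = 0.984 in edgeR) and -0.19 without it (adjusted p = 0.316 in edgeR).

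Members of the Kcna family had lower or similar values in LSD1skm-/- muscle. *Kcna5*, a delayed rectifier of heart and vessels, had 11.3, 10.1 and 14.1 CPM in Ctrl replicates 1 to 3, 11.2 CPM in the library labelled Ctrl replicate 4, and 8.63 and 8.85 CPM in LSD1skm-/- muscle. Both LSD1skm-/- libraries were below every Ctrl library, with a log2 fold change of -0.42 by the labels (SE 0.16, unadjusted p = 0.0289, adjusted p = 0.557 in edgeR) and -0.44 without that library (adjusted p = 0.192 in edgeR). *Kcna7*, the most abundant voltage-gated gene per length, had 48.8, 67.2 and 61.7 CPM in Ctrl replicates 1 to 3, 40.0 CPM in the library labelled Ctrl replicate 4, and 51.8 and 47.6 CPM in LSD1skm-/- muscle, with overlapping groups (log2 fold change -0.13 by the labels, SE 0.20, adjusted p = 0.843 in edgeR).

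*Kcnab1*, whose product is a beta subunit that speeds the inactivation of Kcna channels, had 3.96, 5.18 and 4.41 CPM in Ctrl replicates 1 to 3, 9.10 CPM in the library labelled Ctrl replicate 4, and 8.89 and 6.06 CPM in LSD1skm-/- muscle. The library labelled Ctrl replicate 4 was the highest of all. The log2 fold change was 0.39 by the labels (SE 0.34, adjusted p = 0.715 in edgeR) and 0.73 without it (SE 0.21, adjusted p = 0.104 in edgeR).

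All 4 tested inward rectifiers had fitted log2 fold changes below 0 in both fits, with medians of -0.20 by the labels and -0.22 without the library labelled Ctrl replicate 4, and 1 of them passed an adjusted p of 0.05 in the latter. *Kcnj2*, whose loss in humans causes a periodic paralysis with cardiac arrhythmia, lies at chr11:111066164-111076821 on the plus strand. *Kcnj2* had 53.6, 59.8 and 49.9 CPM in Ctrl replicates 1 to 3, 36.9 CPM in the library labelled Ctrl replicate 4, and 39.3 and 35.6 CPM in LSD1skm-/- muscle. The library labelled Ctrl replicate 4 fell between the LSD1skm-/- libraries. The log2 fold change was -0.42 by the labels (SE 0.19, adjusted p = 0.557 in edgeR) and -0.54 without that library (SE 0.12, adjusted p = 0.0446 in edgeR), and the mean LSD1skm-/- level was 0.687 of that in Ctrl replicates 1 to 3.

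*Kcnj11* had 147, 177 and 137 CPM in Ctrl replicates 1 to 3, 123 CPM in the library labelled Ctrl replicate 4, and 117 and 138 CPM in LSD1skm-/- muscle. The groups overlapped, with a log2 fold change of -0.20 by the labels (SE 0.16, adjusted p = 0.689 in edgeR) and -0.27 without that library (adjusted p = 0.334 in edgeR). *Kcnj12* had 86.8, 76.1 and 68.3 CPM in Ctrl replicates 1 to 3, 54.8 CPM in the library labelled Ctrl replicate 4, and 57.3 and 80.1 CPM in LSD1skm-/- muscle. It also overlapped between the groups (log2 fold change -0.06 by the labels and -0.17 without that library, adjusted p = 0.936 and 0.632 in edgeR). *Kcnj8*, the pore of the ATP-sensitive channel of vessels, had 11.5 to 15.5 CPM in the Ctrl libraries and 11.2 and 12.1 CPM in LSD1skm-/- muscle.

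*Kcnq5*, which encodes a slowly activating channel, had 20.3, 13.8 and 25.9 CPM in Ctrl replicates 1 to 3, 13.6 CPM in the library labelled Ctrl replicate 4, and 21.5 and 13.1 CPM in LSD1skm-/- muscle, and varied as much within each group as between them (log2 fold change -0.09 by the labels, SE 0.31, adjusted p = 0.934 in edgeR).

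Below a mean count of 50, *Kcnu1* and *Kcng2* were the members with an adjusted p under 0.05 without the library labelled Ctrl replicate 4, and they are described here because of those values. Both passed the wider filter only with the reads of libraries other than Ctrl replicates 1 to 3. *Kcnu1*, best known as the potassium channel of sperm, had 0.405, 0.647 and 0.348 CPM in Ctrl replicates 1 to 3, 1.03 CPM in the library labelled Ctrl replicate 4, and 2.08 and 1.38 CPM in LSD1skm-/- muscle. Both LSD1skm-/- libraries exceeded every Ctrl library, with a log2 fold change of 1.5 by the labels (SE 0.44, unadjusted p = 0.0102, adjusted p = 0.584 in edgeR) and 1.88 without that library (adjusted p = 0.0313 in edgeR). *Kcng2*, a silent subunit gene, had 0.203, 0.154 and 0.203 CPM in Ctrl replicates 1 to 3, 1.37 CPM in the library labelled Ctrl replicate 4, and 0.599 and 1.73 CPM in LSD1skm-/- muscle. That library lay between the LSD1skm-/- libraries, and the log2 fold change was 1.23 by the labels (adjusted p = 0.681 in edgeR) and 2.62 without it (SE 0.52, adjusted p = 0.0344 in edgeR).

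Other genes of membrane excitability were taken from a list of 36 partners of these channels, such as sulfonylurea receptors, auxiliary subunits, the sodium-potassium pump and the sodium, chloride, calcium and HCN channels of muscle. Of the 28 with a mean count above 50, 0 passed an adjusted p of 0.05 with all 6 libraries (edgeR), and 6 were higher and 1 lower at an unadjusted p under 0.05, where 5.02% and 3.88% of all genes were. Without the library labelled Ctrl replicate 4, 4 were higher and 1 was lower at an adjusted p under 0.05 (edgeR), and 9 were higher and 1 lower at an unadjusted p under 0.05. The shares over all genes were 4.36% and 1.02% at the adjusted and 12.5% and 7.72% at the unadjusted threshold. The median log2 fold change of the 28 was 0.06 by the labels and 0.08 without that library.

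*Abcc8*, the sulfonylurea receptor best known from pancreatic beta cells, had 2.43, 3.14 and 1.94 CPM in Ctrl replicates 1 to 3, 8.37 CPM in the library labelled Ctrl replicate 4, and 6.90 and 7.95 CPM in LSD1skm-/- muscle. Its log2 fold change was 0.89 by the labels (adjusted p = 0.619 in edgeR) and 1.57 without that library (SE 0.22, adjusted p = 0.00888 in edgeR). *Abcc9*, the receptor that joins the *Kcnj11* pore in muscle, stayed between 200 and 286 CPM in all 6 libraries, with a log2 fold change of -0.03 by the labels (adjusted p = 0.96 in edgeR). *Abcc8* was thus higher from a low level, beside a *Kcnj11* pore and an *Abcc9* receptor that were not called different.

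*Lrrc38* encodes an auxiliary gamma subunit of the large-conductance channel formed by *Kcnma1*. *Lrrc38* had 31.1, 30.4 and 32.4 CPM in Ctrl replicates 1 to 3, 40.1 CPM in the library labelled Ctrl replicate 4, and 50.8 and 63.8 CPM in LSD1skm-/- muscle. Both LSD1skm-/- libraries were above all Ctrl libraries, and the log2 fold change was 0.77 by the labels (SE 0.15, unadjusted p = 0.000927, adjusted p = 0.557 in edgeR) and 0.87 without that library (adjusted p = 0.00867 in edgeR). *Hcn2*, a channel opened by hyperpolarization, had 1.66 to 2.29 CPM in the Ctrl libraries and 3.56 and 3.80 CPM in LSD1skm-/- muscle (log2 fold change 1.02 without that library, adjusted p = 0.0235 in edgeR). *Fxyd6*, a regulator of the sodium-potassium pump, had 27.4 to 46.3 CPM in Ctrl and 57.4 and 59.4 CPM in LSD1skm-/- muscle (log2 fold change 0.85 without that library, adjusted p = 0.0133 in edgeR). *Cacng1*, the gamma subunit of the calcium channel of the T-tubule, was the 1 partner that was lower, with 225 to 283 CPM in Ctrl replicates 1 to 3, 142 CPM in the library labelled Ctrl replicate 4, and 122 and 131 CPM in LSD1skm-/- muscle (log2 fold change -0.95 without that library, adjusted p = 0.00928 in edgeR).

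**Figure D5:**
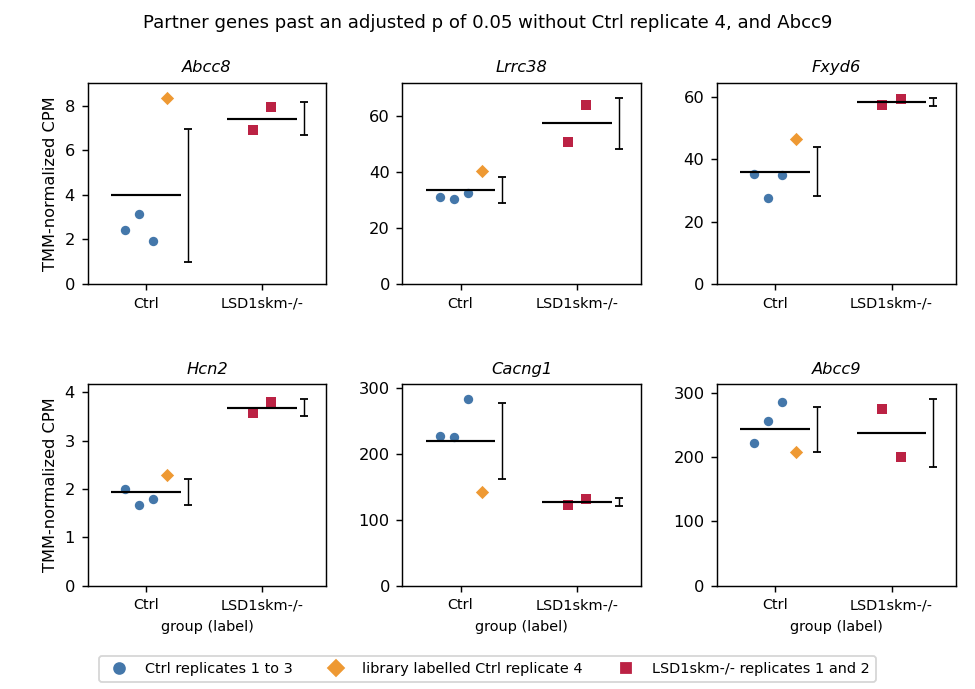
TMM-normalized CPM in each library of the 5 partner genes with an adjusted p under 0.05 in edgeR without the library labelled Ctrl replicate 4, and of *Abcc9*. Horizontal lines are the means by label and bars 1 standard deviation. The LSD1skm-/- libraries lie above all 4 Ctrl libraries for *Lrrc38*, *Fxyd6* and *Hcn2* and below them for *Cacng1*, the library labelled Ctrl replicate 4 is highest for *Abcc8* (8.37 CPM), and the groups overlap for *Abcc9*.

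Markers of other cell types differed between libraries and are given because several channels are also expressed outside myofibers. The summed level of 7 smooth muscle and pericyte markers was 312 to 460 CPM in Ctrl and 324 and 363 CPM in LSD1skm-/- libraries, and that of 5 endothelial markers 169 to 222 CPM in Ctrl and 148 CPM in both LSD1skm-/- libraries. The 6 fibroblast markers summed to 430 to 476 CPM in Ctrl replicates 1 to 3. Their sum was 699 CPM in the library labelled Ctrl replicate 4 and 608 and 717 CPM in LSD1skm-/- muscle. It moved with *Kcnk1* and *Kcne1l*, as did *Col1a1*, *Col1a2*, *Col3a1* and *Lum*. In the library labelled Ctrl replicate 4, *Dcn* had 220 CPM and *Pdgfra* 16.4 CPM. Ctrl replicates 1 to 3 had 195.7 to 232.9 CPM of *Dcn* and 14.35 to 15.57 CPM of *Pdgfra*. LSD1skm-/- muscle had 267.8 and 297.5 CPM of *Dcn* and 18.75 and 20.31 CPM of *Pdgfra*. Adipocyte markers (6 genes, mostly *Car3*, which fibers also express) had 2408 to 4062 CPM in Ctrl replicates 1 to 3, 1563 CPM in the library labelled Ctrl replicate 4 and 1089 and 1259 CPM in LSD1skm-/- libraries. The more specific adipocyte markers did not follow that sum. *Adipoq*, a hormone gene of fat cells, was highest in the library labelled Ctrl replicate 4 (19.6 CPM), with 12.8 and 9.70 CPM in Ctrl replicates 1 and 2, 0.783 CPM in Ctrl replicate 3 and 0.126 and 0.558 CPM in LSD1skm-/- libraries, and *Plin1*, *Cidec*, *Fabp4* and *Lep* were also highest in the library labelled Ctrl replicate 4. Slow fiber markers (7 genes) had 1031 to 2069 CPM in Ctrl and 442 and 795 CPM in LSD1skm-/- libraries, Schwann cell markers (7 genes) 48.0 to 167 and 58.1 and 96.8 CPM, and immune markers (6 genes, of which 4 were detected in every library) 19.0 to 63.5 and 31.4 and 50.2 CPM. The part of these cell types in the channel values was not tested.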

How the data were processed

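RNA-seq counts were analysed for Ctrl replicates 1 to 4 and LSD1skm-/- replicates 1 and 2. Single-end reads of 50 bases were mapped to mm10 by the authors, who kept those aligned uniquely and deposited raw counts per gene symbol. The aligner and the strand setting are not given in the sources used here, although the kit marks strand, so reads of antisense genes may not be separated. Libraries are taken as replicates by their labels, which do not state separate mice, so p-values measure the spread between libraries. No column of another sample was present.

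Members and gene lists were chosen with earlier results of these data known. Genes with a mean count above 50 (11364 of 27041) were tested with edgeR 4.0.16 in R 4.3.3 (quasi-likelihood test with TMM scaling and no term but the condition, Benjamini-Hochberg adjustment over all genes), by the labels and without the library labelled Ctrl replicate 4. The standard error was derived from the F statistic. Levels are TMM-normalized CPM, per kilobase of GENCODE vM21 exons for comparing genes, and log2 CPM used a prior count of 2. Named are members with an unadjusted p under 0.05 in either comparison, the 2 highest per length in each class, and a fixed list of muscle channels. Alternatives were DESeq2 1.42.0, other scalings and filters, a replicate block and leaving out each library. The test was run on simulated data with the same spread for all genes and no library that went against its label. That check therefore does not cover a library such as the one labelled Ctrl replicate 4. Channel protein sequences were not analysed here. The values of 3 members are not reported here, and they remain in the counts.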

Additional observations from a re-analysis of the deposited data

Results flagged for a closer look

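On the log2 CPM scale, 22 results were examined for a Ctrl library that stands apart from the other Ctrl libraries, as the gap to its nearest neighbour divided by the range of the 4 libraries, and 4 did, 3 of them through the library labelled Ctrl replicate 4. Chance gives about 1 in 20 for a single result chosen in advance. These results share the same 4 libraries, and some were named by the fit without the library labelled Ctrl replicate 4. Their number therefore cannot be set against that rate. For *Kcnk1* that library was high (gap 0.844 of the range), with 18.3 CPM against 0.616 to 1.07 CPM in Ctrl replicates 1 to 3. For *Kcnc1* it was low (0.865), with 45.3 CPM against 79.5 to 86.8 CPM. For *Kdm1a* it was low as well (0.879), with 3.66 CPM against 22.0 to 28.1 CPM. *Kcng4* stood apart through Ctrl replicate 3 (0.913), which had 36.6 CPM against 75.6 to 81.0 CPM in the other Ctrl libraries. The part of that library in the values of these genes is given by the comparisons with and without it, and the cause of its levels was not tested.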

How the results depend on the processing

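With all 6 libraries, 0 members passed an adjusted p of 0.05 (edgeR), also under other scalings and, for the 22 members it gave a p for, with DESeq2. Exceptions were no filter beyond 1 count (1, *Kcnf1*) and the replicate block (6). When each library was left out in turn, 0 to 6 members passed, the 6 without the library labelled Ctrl replicate 4. In the absence of that library, 8 passed with a summed count of at least 50, 7 with DESeq2, 6 with DESeq2's size factors or upper-quartile scaling (chosen after seeing the data), 5 with library size scaling (likewise), and 2 to 5 when another library was left out as well (likewise). Members with an unadjusted p under 0.05 numbered 4 by the labels, 7 with a summed count of at least 50, 13 with no filter beyond 1 count, 9 with the replicate block, and 1 to 12 when each library was left out. Once the library labelled Ctrl replicate 4 was removed, they numbered 17 with a summed count of at least 50 and 11 with DESeq2. The median log2 fold change of the members was -0.059 with library size scaling, -0.17 to -0.021 when each library was left out, and -0.18 with DESeq2 without the library labelled Ctrl replicate 4. Partner genes past an adjusted p numbered 0 to 5 and past an unadjusted p 3 to 10 when each library was left out. *Kdm1a* had a log2 fold change of -2.58 with no filter, -2.80 with the replicate block, -2.91 to -2.32 when each library was left out, and, without the library labelled Ctrl replicate 4, -2.92 with a summed count of at least 50 and -2.92 with DESeq2. It passed an adjusted p of 0.05 in these settings, except where a library other than the one labelled Ctrl replicate 4 was left out alone.

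Of 18 named members refitted in 15 other settings, 12 kept the direction of their fold change in all of them, and of 3 with fewer reads (*Kcne3*, *Kcne4* and *Kcnmb1*), refitted in 2 settings, 2 did. The other 7 lay between -0.17 and -0.0042 by the labels. When each library was left out in turn, *Kcnc1* ranged from -0.19 to 0.067, *Kcnn1* from -0.082 to 0.061, *Kcnq5* from -0.49 to 0.22, *Kcnj12* from -0.32 to 0.16, *Kcnk6* from -0.41 to 0.072 and *Kcnma1* from -0.38 to 0.0021. With library size scaling *Kcnc1* turned to 0.030 and *Kcnn1* to 0.038, with the replicate block *Kcnq5* turned to 0.0059, and *Kcne4* turned to 0.087 with a summed count of at least 50 and without the library labelled Ctrl replicate 4. None of these values passed an adjusted p of 0.05, and the cause of the turns was not tested.

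The groups share replicate numbers 1 and 2, and nothing in the labels says that a number marks a shared litter or day. Deviations of same-numbered libraries from their group means correlated at -0.23 and -0.03. With 2 LSD1skm-/- libraries, their deviations mirror each other by construction. These correlations therefore cannot show whether same-numbered libraries share more than a number. With the replicate block, 632 of all genes and 6 members (*Kcnc4*, *Kcne1l*, *Kcnf1*, *Kcnk1*, *Kcnn2* and *Kcnn3*) passed an adjusted p of 0.05, and 1677 genes and 9 members an unadjusted p of 0.05. Since replicates 3 and 4 are Ctrl alone here, this fit compares replicates 1 and 2 of each group.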

Other observations

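Some members with few reads moved with the library labelled Ctrl replicate 4 and not with the LSD1skm-/- libraries. They were chosen after their values were seen. *Kcnk3*, an acid-sensitive leak channel, had 0.463, 0.246 and 0.261 CPM in Ctrl replicates 1 to 3, 1.28 CPM in the library labelled Ctrl replicate 4, and 0.158 and 0.133 CPM in LSD1skm-/- muscle, so both LSD1skm-/- libraries were below every Ctrl library (log2 fold change -1.96 by the labels, unadjusted p = 0.0475, adjusted p = 0.584, and -1.15 without that library, unadjusted p = 0.0609, adjusted p = 0.288, edgeR). *Kcnt1*, a sodium-activated channel, had 0.347, 0.123 and 0.116 CPM in Ctrl replicates 1 to 3, 0.960 CPM in the library labelled Ctrl replicate 4, and 0.189 and 0.133 CPM in LSD1skm-/- muscle. For these genes the library labelled Ctrl replicate 4 was the highest of all 6, unlike *Kcnk1*, where it was near the LSD1skm-/- libraries.

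*Kcnh2*, a channel that repolarizes the heart, had 0.694 to 1.46 CPM in the Ctrl libraries, the highest in the library labelled Ctrl replicate 4, and 1.70 and 1.54 CPM in LSD1skm-/- muscle (log2 fold change 0.94 without that library, adjusted p = 0.104, edgeR). *Kcnh7*, of the same family and the lowest member per length, had 0.203 to 0.841 CPM in the Ctrl libraries and 0.158 and 0.0532 CPM in LSD1skm-/- muscle (log2 fold change -2.09 by the labels, unadjusted p = 0.0289, adjusted p = 0.584, edgeR). The groups did not overlap for either gene, and their fold changes had opposite signs.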
